A study of Saccharomyces cerevisiae with 32 samples.

Results

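The 10 genes described here encode mannoproteins of the budding yeast cell wall and were taken by reading frame name: CWP1 (YKL096W), CWP2 (YKL096W-A), CCW12 (YLR110C), CIS3 (YJL158C), SED1 (YDR077W), TIR1 (YER011W), TIR2 (YOR010C), TIR3 (YIL011W), TIR4 (YOR009W) and FLO11 (YIR019C, also called MUC1). All 10 were listed in each of the 6 deposited tables, which hold 5446 reading frames in all and 5331 in every table. Ribosome footprints and mRNA of 8 strains that differ in the helicase genes DED1 and DBP1 were sequenced, each in 2 libraries. At 15 °C these were the cold-sensitive ded1-cs with high-copy DBP1 (hcDBP1), ded1-cs without it, and the strain labelled DED1-CS WT. At 37 °C they were ded1-ts with hcDBP1, ded1-ts without it, and the strain labelled DED1-TS WT. In a further experiment at 37 °C they were a ded1-ts dbp1Δ double mutant and a dbp1Δ strain, whose tables give changes against a WT that no sample label describes. Cultures in SC medium, with plasmids kept under selection where present, reached an OD600 near 0.7 before the temperature shift, and cycloheximide (100 µg/ml) was present for the last 2 min. The labels give neither the length of the shift nor the mutated residues, and no culture without a shift is analysed here.

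The wall of budding yeast is an outer coat of mannoproteins over a layer of glucan and chitin. Most of these proteins enter the secretory pathway, receive O- and N-linked mannose, carry a GPI anchor in transit and end up linked to glucan. CWP1, CWP2, CCW12 and SED1 are GPI proteins of the coat, with SED1 known as a major wall protein of stationary cells. CIS3 is a PIR protein, which is bound to glucan without a GPI anchor. The TIR genes encode the serine- and alanine-rich Srp1/Tip1 family, known to be induced by cold and by lack of oxygen. FLO11 encodes the flocculin of invasive and filamentous growth. Ded1 is known to help the small ribosomal subunit scan structured leaders, and Dbp1 is its closest relative.

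Both libraries of a strain and assay were pooled in each deposited value, so no spread, error or p can be given for any value below, and no difference was tested. A change in translational efficiency (TE) is the footprint change less the mRNA change, both in log2, so an error in the mRNA value enters both parts with opposite sign. A gene was counted where its change was at least 2-fold (log2 of 1), provided that its mean level, taken out of log2, reached 50 in both assays. The share of all such genes past 2-fold in either direction, the background, stands beside the counts of members. Sequencing depth is unknown. As a check of the labels, DBP1 mRNA stood at 5.85 (log2) in ded1-cs hcDBP1 and 6.89 in ded1-ts hcDBP1 over their WT, and at -6.21 in dbp1Δ and -9.45 in the double mutant, all in the authors' deposited tables. DED1 mRNA stood at 1.37 in ded1-cs, with footprints at 2.72, and at -1.17 in ded1-ts, with footprints at -0.99, in the authors' deposited tables. By difference it stood at 1.67 in the double mutant over dbp1Δ, and its part in the results was not tested. Markers of a cells exceeded those of alpha cells in summed mRNA in every strain, by log2 2.80 to 5.12. None of the 10 genes overlaps another gene in the reference annotation, but CWP1 lies next to CWP2 and TIR2 next to TIR4. Repeats and near-identical stretches shared with other wall genes were not searched for, so reads of the TIR genes and FLO11 may be shared among copies.

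The 10 genes fell into 2 kinds by their ratio of footprints to mRNA within a strain, a measure in which gene length cancels. Each ratio is the deposited log2 footprint level minus the log2 mRNA level, set against that of the median gene of the strain. CWP1, CWP2, CCW12, CIS3, SED1, TIR1 and TIR3 stood above the median gene in all 8 strains, except TIR1 in the double mutant at -0.05. TIR1 and TIR3, the latter at 1.81, were under the level minimum there. In dbp1Δ TIR3 stood at only 0.06, at percentile 52.55. In DED1-CS these 7 stood 1.48 (CWP1) to 2.13 (CWP2) above the median gene, at percentiles 97.76 to 99.68. The other 3 lay mostly below it. FLO11 stood at 1.0 in ded1-cs, against -1.80 in DED1-CS, and at -1.11 in ded1-ts, against -2.45 in DED1-TS. TIR4 stood at -1.4 in ded1-cs, against -3.51 in DED1-CS, where it was at percentile 0.10, and at -3.64 in ded1-ts, against -3.61 in DED1-TS. TIR2 stood at -1.7 in ded1-cs, against -1.67 in DED1-CS, and at -3.99 in ded1-ts, against -3.05 in DED1-TS. The TIR genes were thus not alike, with TIR1 and TIR3 high in footprints per mRNA in most strains and TIR2 and TIR4 low. CWP1 and TIR1 were nearer the median gene in ded1-ts. CWP1 stood at 0.59 in ded1-ts, against 2.30 in DED1-TS, at percentiles 74.05 and 99.52, and TIR1 at 0.47, against 1.78, at percentiles 69.58 and 98.09.

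**Figure D1:**
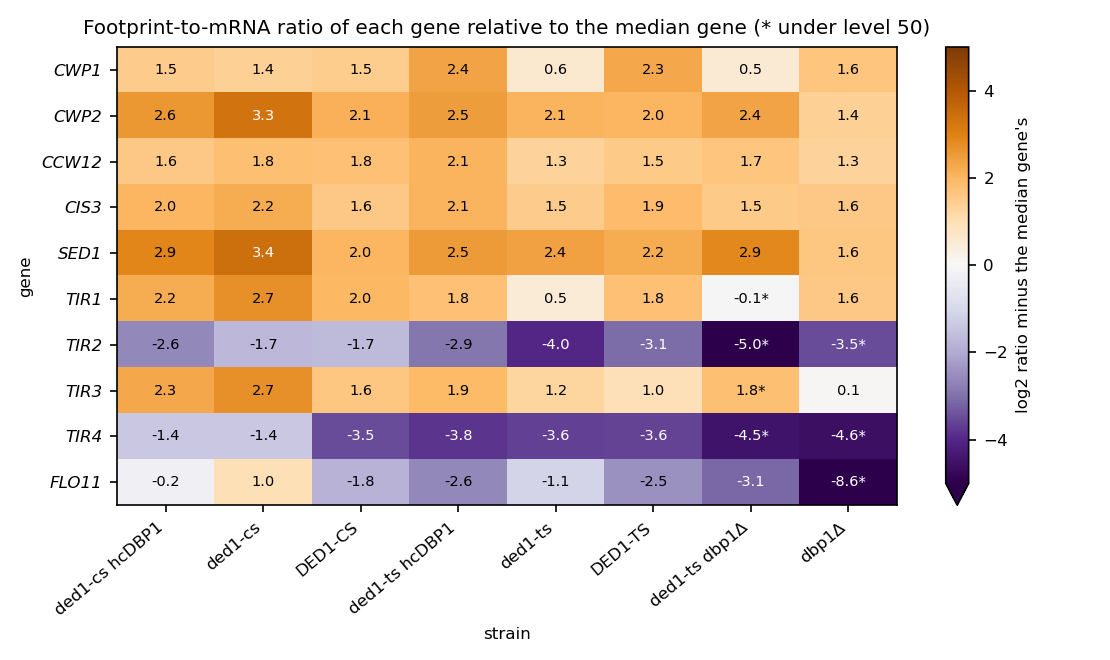
The log2 footprint-to-mRNA ratio of each gene (rows) relative to the median gene of the same strain (columns), from the deposited pooled levels. Orange cells are above the median gene and purple cells below it: TIR2, TIR4 and FLO11 are purple in DED1-CS and DED1-TS, while the other genes are orange. Asterisks mark genes under a level of 50 in either assay of that strain.

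The TIR genes are known for induction by cold, so their levels in both DED1 strains are given side by side as ppm of each column's summed level. TIR1 held 25.5 ppm of the footprints in DED1-CS at 15 °C and 21.2 in DED1-TS at 37 °C, and TIR3 held 24.8 and 12.8. TIR2 held 3.56 and 1.97, and TIR4 3.46 and 2.03. In mRNA, TIR1 held 10.4 and 11.3 ppm, TIR2 18.0 and 29.8, TIR3 12.7 and 12.1, and TIR4 62.8 and 45.2. Footprint shares of all 4 were thus higher in the cold strain, and mRNA shares were higher for TIR4 and, by little, TIR3. These shares depend on the summed levels, which were 26354258 in DED1-CS and 43160176 in DED1-TS for footprints. Out of log2, footprint levels in DED1-CS and DED1-TS were 671 and 915 for TIR1, and 653 and 554 for TIR3. They were 93.7 and 84.9 for TIR2, and 91.1 and 87.5 for TIR4. The mRNA level of TIR4 was 1024 in both. The tables were scaled separately, so it is not resolved whether levels of these genes were higher in the cold strain. The mRNA levels were deposited in rounded form, with level differences up to 0.0997 (log2) away from the deposited changes. The small TIR3 difference in mRNA is thus not resolved. Strain, experiment and table differ along with temperature, so the part of temperature cannot be told apart.

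In ded1-cs at 15 °C, FLO11, TIR4, TIR3, SED1 and CWP2 had at least 2-fold more footprints per mRNA than in DED1-CS, FLO11 and TIR4 most of all. FLO11 had a deposited log2 footprint level of 9.5 in ded1-cs, against 7.02 in DED1-CS, and an mRNA level of 8.5 against 8.8. In the authors' deposited table its footprint change was 2.47 (log2), its mRNA change -0.24 and its TE change 2.71, which ranked 9th from the top of 5076 genes. TIR4 had a footprint level of 8.8 in ded1-cs, against 6.51 in DED1-CS, and an mRNA level of 10.2 against 10. Its deposited changes in the authors' table were 2.26 in footprints, 0.23 in mRNA and 2.03 in TE, ranking 18th in TE. SED1 stood at 1.44 in TE there, CWP2 at 1.11 and TIR3 at 1.03, and TIR3 alone of these had mRNA higher by more than 0.5 (0.61) in the authors' deposited table.

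For the remaining genes of the group, the authors' deposited table gives TE changes of 0.71 for TIR1, 0.62 for CIS3, 0.04 for CCW12, -0.03 for TIR2 and -0.16 for CWP1. TIR1 differed from the rest in mRNA: its mRNA level was 6.2 in ded1-cs, against 7.4 in DED1-CS. That is a change of -1.21 in the authors' deposited table, the 21st lowest of 5076 genes, with footprints at -0.50. In all, 5 of 10 members were past 2-fold in TE, each of them higher, against 38.3% of all genes in either direction. The median member stood at 0.87 in TE and the median gene at 0.10. In footprints 4 of 10 were past 2-fold, all higher (background 34.1%), and in mRNA 1 of 10, TIR1, lower (background 2.11%). Each of the 4 footprint changes had TE as its larger part, as did 94.2% of all genes past 2-fold in footprints. With the columns scaled to equal totals, which shifts every TE change by -0.59, FLO11 at 2.12 and TIR4 at 1.44 were past 2-fold, while SED1 at 0.85, CWP2 at 0.51 and TIR3 at 0.44 were not. TIR3 stood at 0.93 after median centring. In footprints, equal totals put SED1 at 0.68, under 2-fold, and CWP1 at -1.22 and TIR1 at -1.03, past it. Thus 3 members were higher and 2 lower, against 35.9% of all genes in either direction.

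**Figure D2:**
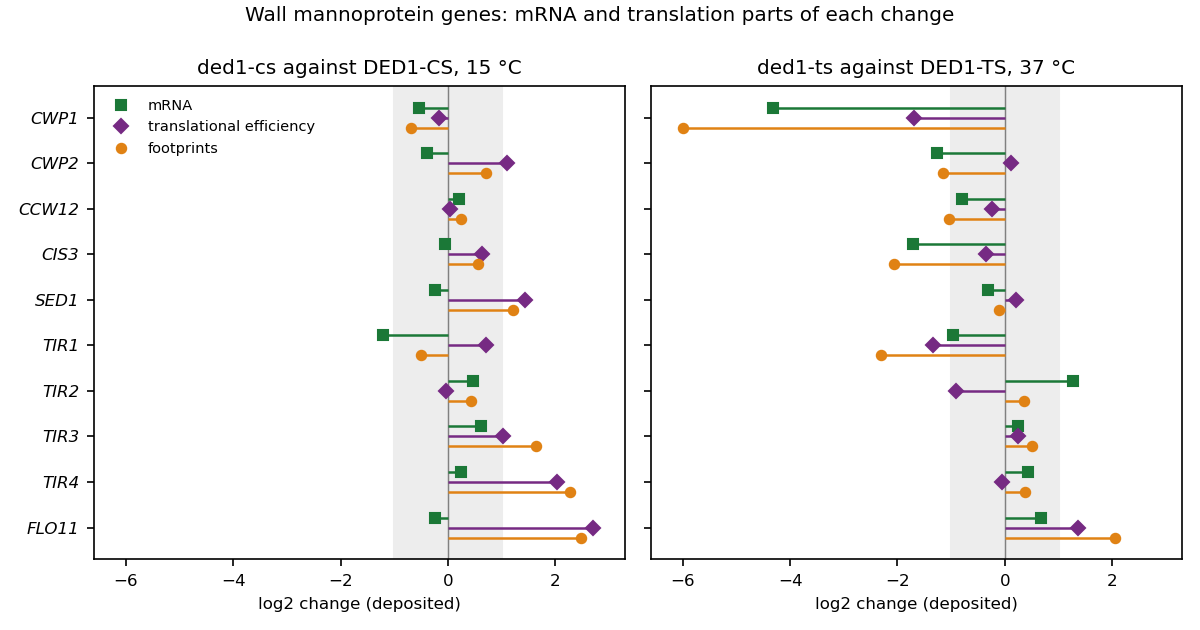
Deposited log2 changes (horizontal axis) in mRNA, TE and footprints for each gene in ded1-cs against DED1-CS (left panel) and ded1-ts against DED1-TS (right panel). Grey marks changes under 2-fold. On the left the longest bars are the TE and footprint changes of FLO11 and TIR4, and on the right the mRNA and footprint changes of CWP1, at -4.32 and -6.00.

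In ded1-ts at 37 °C, mRNAs of CWP1, CIS3 and CWP2 were past 2-fold lower than in DED1-TS, and CWP1 had the lowest mRNA and the lowest footprint change of all 5222 genes. CWP1 had a deposited log2 footprint level of 9.05 in ded1-ts, against 15.06 in DED1-TS, and an mRNA level of 8.4 against 12.7. In the authors' deposited table its changes were -6.00 in footprints, a 64.1-fold lower level, -4.32 in mRNA, 19.9-fold lower, and -1.69 in TE, 3.22-fold lower. Both parts thus pointed the same way, with mRNA the larger. CIS3 followed, with a footprint level of 13.98 in ded1-ts, against 16.05 in DED1-TS, and an mRNA level of 12.4 against 14.1. The authors' deposited table has CIS3 at -2.07 in footprints, -1.71 in mRNA and -0.35 in TE. CWP2, the neighbour of CWP1, stood at -1.15 in footprints, -1.27 in mRNA and 0.12 in TE in the authors' deposited table. CCW12 stood at -1.04 (-0.91 in footprints with equal totals), -0.80 and -0.24 there, and SED1 at -0.10, -0.31 and 0.20.

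Of the TIR genes, only TIR1 was past 2-fold lower in footprints. It had a footprint level of 7.53 in ded1-ts, against 9.84 in DED1-TS, and an mRNA level of 7.0 against 8.0. Its deposited changes were -2.31 in footprints, -0.96 in mRNA and -1.35 in TE in the authors' table. TIR2 had more mRNA, 10.7 in ded1-ts against 9.4 in DED1-TS, a change of 1.27 in the authors' deposited table. Its TE stood at -0.91 there, so its footprints were only 0.36 higher. TIR3 and TIR4 stood at 0.50 and 0.37 in footprints in the authors' deposited table, with no part past 0.5. FLO11 footprints were again past 2-fold higher. The footprint level of FLO11 was 8.95 in ded1-ts, against 6.91 in DED1-TS, and the authors' deposited table gives 2.05 in footprints, 0.68 in mRNA and 1.37 in TE, the 39th highest TE change.

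In ded1-ts 4 of 10 members were thus past 2-fold in mRNA, CWP1, CIS3 and CWP2 lower and TIR2 higher, against 7.33% of all genes. In footprints 6 of 10 passed, 5 lower and FLO11 higher (background 13.3%), and in TE 3 of 10, CWP1 and TIR1 lower and FLO11 higher (background 9.23%). The median member stood at -0.55 in mRNA, -0.57 in footprints and -0.15 in TE, and the median gene at -0.00, 0.03 and 0.08. Of the 6 footprint changes 2 had TE as the larger part, those of TIR1 and FLO11, against 54.2% of all genes past 2-fold in footprints. The 10 genes together held 1.10% of the summed footprint level in ded1-ts and 1.78% in DED1-TS, and 0.615% and 0.920% of the mRNA.

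The strains of these 2 comparisons share no library, so their changes can be set side by side. The TE change was lower in ded1-ts than in ded1-cs for all 10 genes, by 0.28 for CCW12 up to 2.08 for TIR4, as it was for 50.4% of all genes. With equal totals it was lower for 9 of 10 members and 28.2% of all genes, with CCW12 at 0.24. For mRNA the differences ran from -3.78 for CWP1 to 0.92 for FLO11, with 4 genes, all TIR or FLO11, above 0. FLO11 was the one member past 2-fold in TE in both mutants, and in the same direction. No test of this contrast was possible, and temperature, allele and strain cannot be told apart in it.

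Strains with high-copy DBP1 show what extra DBP1 goes with in the ded1 mutants. At 37 °C, CWP1 was far nearer its DED1-TS level with hcDBP1 than without. CWP1 had a deposited log2 footprint level of 13.11 in ded1-ts hcDBP1, against 15.16 for DED1-TS in the same table, and an mRNA level of 10.7 against 12.8. In the authors' deposited table its changes with hcDBP1 were -2.05 in footprints, -2.05 in mRNA and -0.00 in TE. Against ded1-ts, by difference of the deposited changes, CWP1 thus stood at 3.95 in footprints, the highest of 5214 genes, at 2.27 in mRNA, the 2nd highest, and at 1.68 in TE, the 5th highest. The mRNA of CWP1 was still the lowest of 5208 genes against DED1-TS with hcDBP1. With hcDBP1 the TE of CWP1 thus matched DED1-TS closely (-0.00), while its mRNA was 4.13-fold lower.

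TIR1 followed in TE at 1.35 over ded1-ts by difference of the deposited changes, with mRNA at 0.13. TIR2 stood at 1.04 in TE with mRNA at -1.07 and footprints at -0.03, at a mean footprint level of 99.3. Its TE value thus mirrored lower mRNA, with no gain in footprints. CIS3 stood at 1.54 in footprints, of which 0.97 lay in mRNA and 0.56 in TE. CWP2 stood at 0.91 and CCW12 at 0.96 in footprints by the same difference. FLO11 was lower with hcDBP1. Its footprint level was 7.36 in ded1-ts hcDBP1, against 8.95 in ded1-ts, each beside a DED1-TS level of 7.01 and 6.91 in its own table. By difference of the deposited changes FLO11 stood at -1.69 in footprints, the 2nd lowest of 5214 genes, and at -1.46 in TE, the 4th lowest, with mRNA at -0.23. TIR3 stood at 0.62 in TE with mRNA at -0.77, TIR4 at -0.17 in TE and SED1 at 0.10. Of the 10 genes, 4 were past 2-fold in TE with hcDBP1 against ded1-ts, 3 higher and FLO11 lower (background 1.59%), 4 in footprints (background 2.90%) and 2 in mRNA (background 1.02%). With equal column totals TIR2 stood at 0.89 in TE. The ded1-ts libraries enter both the loss and this difference, which favours opposite signs.

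Against DED1-TS, ded1-ts hcDBP1 had 0 of 10 members past 2-fold in TE (background 3.86%), 1 in footprints (background 2.92%) and 1 in mRNA (background 2.28%), CWP1 both times. The highest TE change among them was 0.88 for TIR3 and the lowest -0.22 for TIR4 in the authors' deposited table. In mRNA the median member stayed at -0.60, with CIS3 at -0.74, CWP2 at -0.73, CCW12 at -0.69 and TIR1 at -0.83 there.

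**Figure D3:**
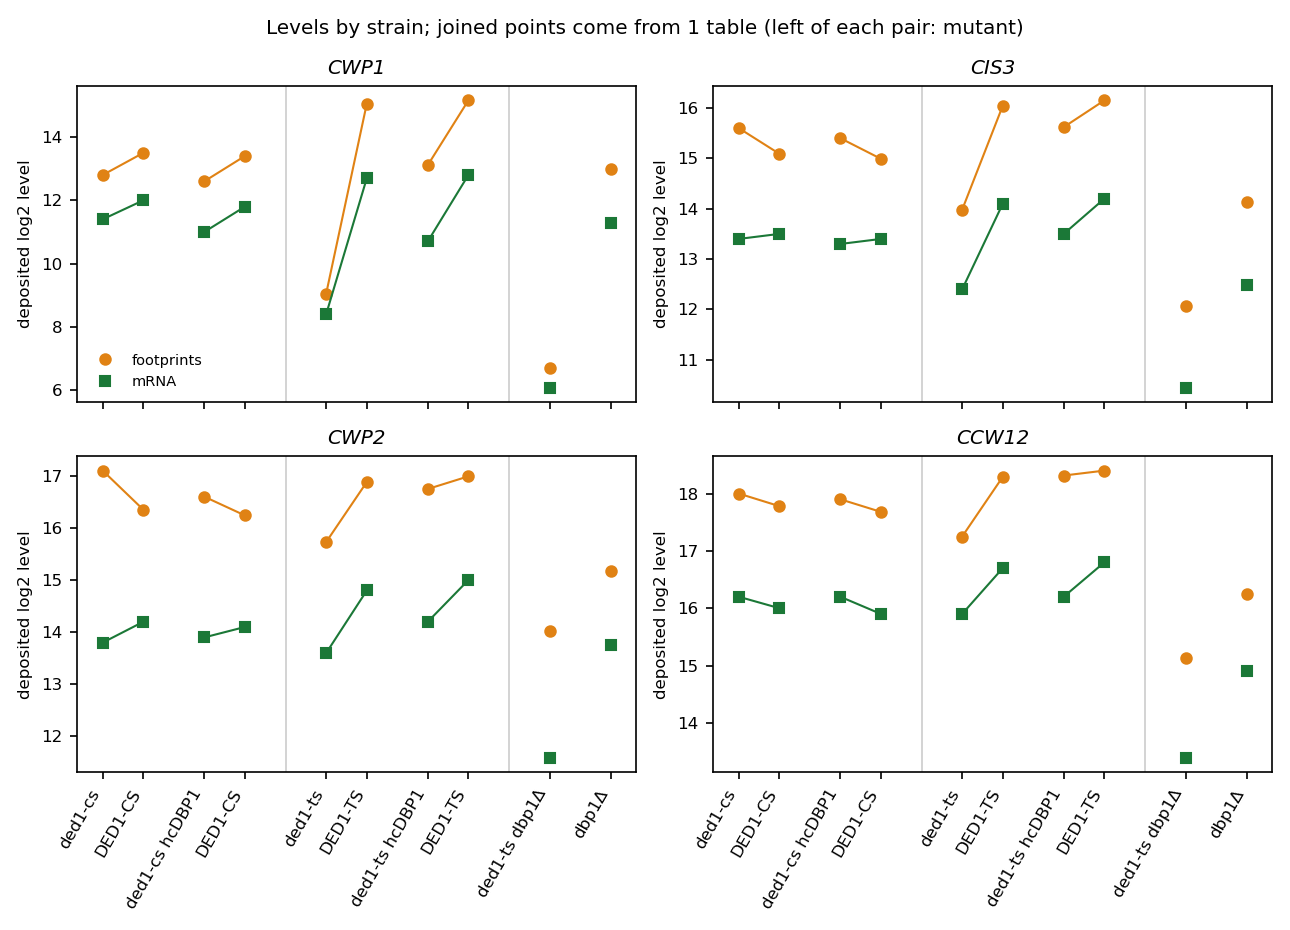
Deposited pooled log2 levels (vertical axis) of footprints and mRNA for 4 coat protein genes by strain, with each mutant left of its WT, joined points taken from 1 table, and no WT drawn for the double mutant and dbp1Δ. CWP1 is at 9.05 in ded1-ts against 15.06 in DED1-TS, and stands at 13.11 in ded1-ts hcDBP1. The tables of the double mutant and dbp1Δ were scaled on their own, so levels compare only within a table.

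At 15 °C hcDBP1 went with smaller differences. Against ded1-cs, by difference of the deposited changes, FLO11 TE stood at -1.07, the 7th lowest of 5077 genes, with mRNA at 0.58, the 23rd highest. TIR2 TE stood at -0.76 and CWP2 TE at -0.53, while CWP1 stood at 0.30 and TIR4 at 0.16. In 8 of 10 members TE was lower with hcDBP1 than without, as in 44.4% of all genes. With equal totals it was lower in 7 of 10 members, with CIS3 at 0.01, and in 23.6% of all genes. Only FLO11 was past 2-fold in TE (1 of 10, background 2.36%), and 0 of 10 in footprints (background 3.90%) or mRNA (background 0.355%). With equal column totals FLO11 stood at -0.90. The median member was at -0.32 in TE and the median gene at 0.05. The ded1-cs libraries are on both sides here too.

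Against DED1-CS, ded1-cs hcDBP1 still had TIR4 at 2.19 in TE in the authors' deposited table, the 9th highest of 5072 genes, with FLO11 at 1.64 and SED1 at 1.09 (0.96 after median centring and 0.67 with equal totals). These were the 3 of 10 members past 2-fold in TE (background 22.3%), and TIR3, TIR4 and FLO11 were the 3 past it in footprints (background 16.8%). With equal totals TIR3 footprints stood at 0.81, under 2-fold, while footprints of CWP1 at -1.18 and TIR1 at -1.07 and TE of TIR2 at -1.22 were past it. In mRNA 0 of 10 passed (background 1.44%), with TIR1 at -0.97 and CWP1 at -0.90 lowest and TIR2 at 0.74 highest in the authors' deposited table. TIR4 thus differed from FLO11 in that its TE change was as high with hcDBP1 as without, at 2.19 and 2.03.

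**Figure D4:**
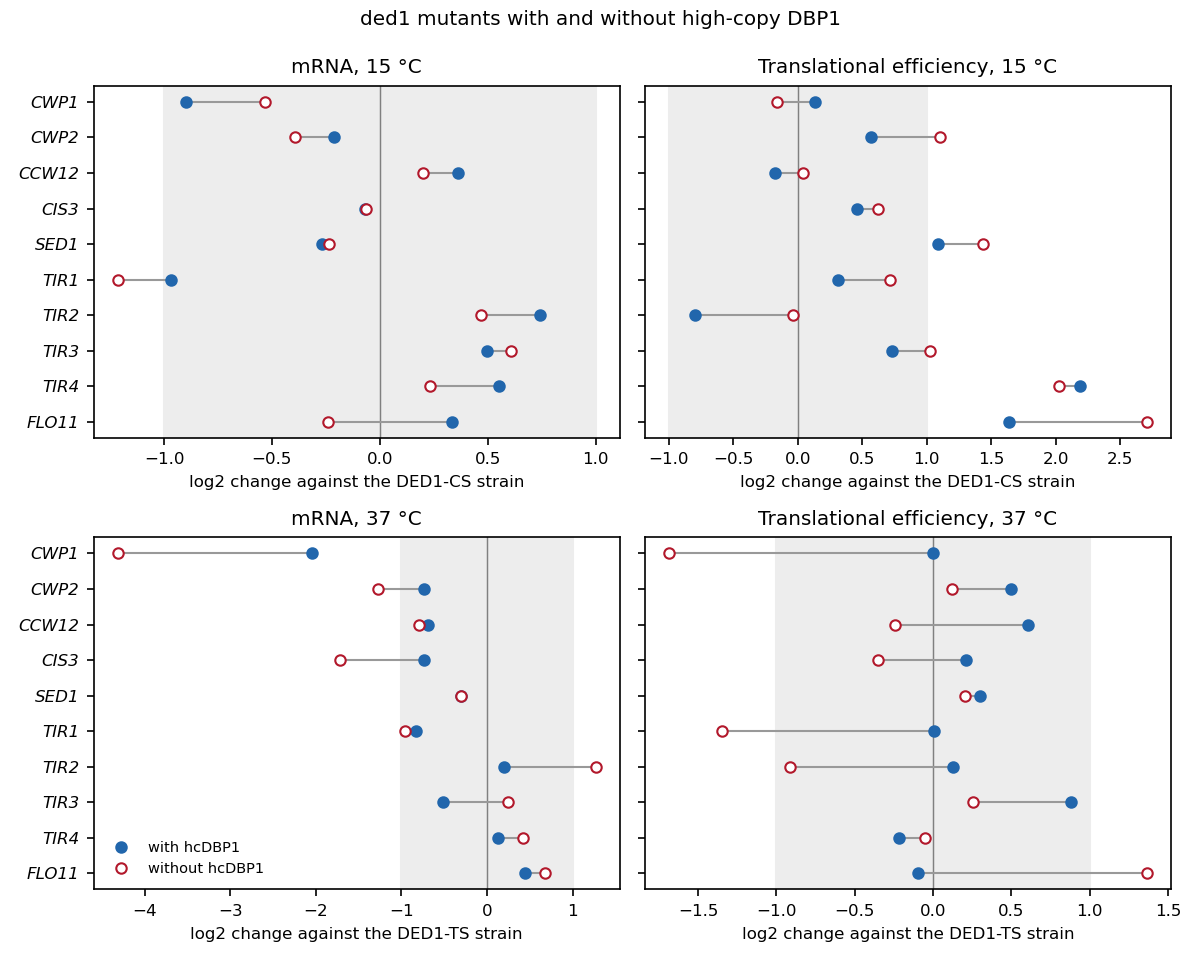
Deposited log2 changes in mRNA (left panels) and TE (right panels) for each gene in ded1 mutants with (filled) and without (open) high-copy DBP1, each against the DED1-CS strain at 15 °C (top) or the DED1-TS strain at 37 °C (bottom). The longest lines are those of CWP1 at 37 °C, and FLO11 TE is nearer 0 with hcDBP1 at both temperatures. Axis ranges differ between panels.

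In dbp1Δ at 37 °C, mRNAs of CWP1, CWP2 and SED1 were past 2-fold higher than in the WT of its table while their footprints were not. DED1 mRNA was itself at -2.63 in the authors' deposited table. CWP1 stood at 1.62 in mRNA, -0.17 in footprints and -1.79 in TE in the authors' deposited table, the 7th lowest TE change of 4971 genes. SED1 stood at 1.95 in mRNA, the 13th highest, with 0.55 in footprints and -1.40 in TE there. CWP2 stood at 1.35 in mRNA, 0.10 in footprints and -1.25 in TE in the authors' deposited table. CIS3 lay nearby with 0.74 in mRNA and -0.61 in TE, while CCW12 was at 0.13 and -0.24 there. TIR1 stood at 0.57 in mRNA and -0.12 in TE, and TIR3 at 0.11 and -0.74, in the authors' deposited table. All 7 members at the level minimum had mRNA above 0 and TE below 0, as did 39.0% of all genes. With equal totals 5 of 7 members and 27.3% of all genes did. Out of log2, TIR1 had an mRNA level of 74.0 in dbp1Δ and a mean with the WT of 60.7. TIR1 thus reached the level minimum through dbp1Δ, which favours an mRNA change above 0. Only 7 of 10 members reached the level minimum, 3 of them past 2-fold in mRNA (background 5.61%), 3 in TE (background 2.21%) and 0 in footprints (background 1.93%). CWP1, CWP2 and SED1 combined higher mRNA with lower TE, each past 2-fold, as did 1.07% of all genes. As mRNA enters TE with a negative sign, an error in mRNA alone would give the same pattern, and its part was not tested.

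**Figure D5:**
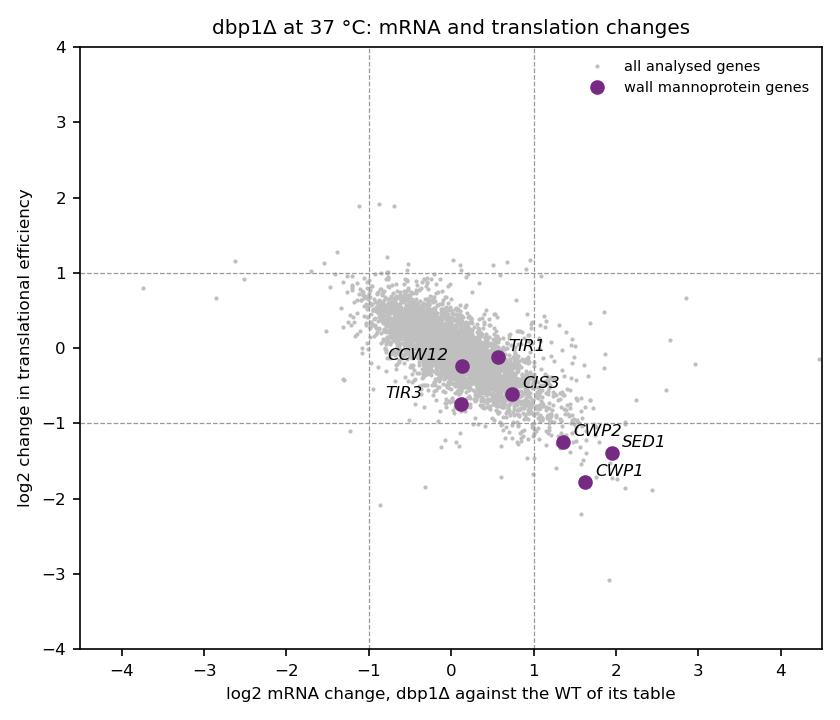
Log2 change in TE (vertical axis) against log2 change in mRNA (horizontal axis) for all 4971 analysed genes (grey) and 7 wall mannoprotein genes (purple) in dbp1Δ against the WT of its table. Dashed lines mark 2-fold. CWP1, CWP2 and SED1 lie at the lower right, with mRNA above 1 and TE below -1.

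The 3 genes under the level minimum in dbp1Δ were TIR2, TIR4 and FLO11. FLO11 had a deposited log2 footprint level of 0.50 there beside an mRNA level of 9.08, and its changes in the authors' deposited table were -3.02 in footprints and 2.27 in mRNA. Out of log2 that footprint level is 1.41, far under the minimum of 50, and nothing is read from its TE change. TIR4 stood at 2.88 in footprints and TIR2 at -1.13 in the authors' deposited table, at mean footprint levels of 6.27 and 24.2.

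In the ded1-ts dbp1Δ double mutant CWP1 was again far lower than in its comparison strain, dbp1Δ. Its deposited log2 footprint level was 6.70 in the double mutant and 12.98 in dbp1Δ, and its mRNA level 6.08 and 11.28, in tables scaled separately. By difference of the deposited changes CWP1 was at -6.15 for footprints and -5.06 for mRNA, the lowest of 4983 genes in both, and at -1.09 in TE. CIS3 stood at -1.92 in footprints and -1.89 in mRNA, and CCW12 at -0.98 (-1.02 after median centring, -1.09 with equal totals) and -1.38, by the same difference. CWP2 and SED1 had lower mRNA, -2.03 and -0.88, and higher TE, 1.02 (0.91 after median centring, 0.82 with equal totals) and 1.26. TIR3 was at 1.78 in TE. Its mRNA level, taken out of log2, was 45.6 in the double mutant, under the minimum, and 61.4 in dbp1Δ, so it was counted through dbp1Δ. Of 6 members at the level minimum, 4 were past 2-fold in mRNA, all lower (background 7.12%), 4 in footprints (background 15.3%) and 4 in TE, 3 higher and CWP1 lower (background 10.5%). FLO11, below the minimum, had differences of 5.41 for footprints and -0.11 for mRNA. The dbp1Δ libraries enter both these differences and the changes of dbp1Δ, which favours opposite signs. In TE the double mutant stood at -0.24 for CWP2 and -0.14 for SED1 against the WT of its table.

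Against the WT of its table the double mutant had CWP1 at -6.32 in footprints, -3.44 in mRNA and -2.88 in TE in the authors' deposited table, a footprint change that was the lowest of 5007 genes. CCW12 stood at -1.25 and CIS3 at -1.16 in mRNA there, and SED1 at 1.07. CWP2 stood at -0.91 in footprints, -0.68 in mRNA and -0.24 in TE in the authors' deposited table, and was just past 2-fold lower in footprints with equal totals. Of 5 members at the level minimum, 4 were past 2-fold in mRNA (background 14.9%), 3 in footprints (background 18.0%) and 1, CWP1, in TE (background 12.9%). This comparison and that of dbp1Δ share their WT, so their values are not independent. Under the minimum, the footprints of TIR4 stood at 2.85, FLO11 at 2.39, TIR3 at 0.85, TIR2 at -1.60 and TIR1 at -2.34 in the authors' deposited table for the double mutant.

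Other genes of wall assembly were counted in ded1-cs and ded1-ts for comparison. In ded1-cs 16.4% of all genes were past 2-fold higher in TE and 21.9% lower, and 1.22% and 0.887% in mRNA. In ded1-ts 2.85% were higher in TE and 6.38% lower, and 4.14% and 3.20% in mRNA. With equal totals, 37% of all genes were past 2-fold in TE in either direction in ded1-cs and 9.52% in ded1-ts. The shares in mRNA were then 2.42% and 9.36%. Shares by direction are not given for equal totals. Of 23 further wall proteins analysed, 11 were past 2-fold higher in TE in ded1-cs and 0 lower, at a median of 0.79. The highest were DAN4, a wall protein of anaerobic cells, at 2.75 and the flocculin FLO10 at 2.19 in the authors' deposited table. With equal totals 2 of the 23 were higher and 2 lower, at a median of 0.20. In mRNA 2 of 23 were higher in ded1-cs, PST1 at 1.12 and NCW2 at 1.16 in the authors' deposited table. In ded1-ts 2 of 23 were higher in TE, DAN4 at 1.90 and the flocculin FLO1 at 1.10 in the authors' deposited table. In mRNA there 3 were higher and 1 lower, TOS6 at -2.48 in the authors' deposited table.

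Of 16 wall remodelling enzymes, 1 was higher in TE in ded1-cs, the glucanase BGL2 at 1.19, and 2 lower, EXG2 at -1.13 and SCW10 at -1.08, in the authors' deposited table. With equal totals 0 were higher and 5 lower. In ded1-ts 3 of these 16 were lower in mRNA, among them GAS3 at -1.66 and SIM1 at -1.37, and SCW10 was lower in TE at -1.78, in the authors' deposited table. Of 26 genes of mannosylation and GPI anchoring, 6 were past 2-fold lower in TE in ded1-cs, a share near that of all genes, and 1, MNN5 at 1.12, was higher in the authors' deposited table. Their median was -0.68, and the lowest were the GPI transamidase subunit GPI17 at -3.47 and the mannan polymerase subunit VAN1 at -2.88 in the authors' deposited table. With equal totals, which shift every TE change by -0.59, 16 of 26 were lower and 0 higher, against 37% of all genes in either direction. In ded1-ts 1 of 26 was lower in TE, VAN1 at -1.04 in the authors' deposited table.

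Of 17 transcriptional regulators of the TIR, DAN and FLO11 genes, 10 were lower and 0 higher in TE in ded1-cs, at a median of -1.15. Of all genes 21.9% were lower and 16.4% higher. With equal totals the counts were also 10 and 0, against 37% of all genes in either direction. Among the 10 lower as deposited were the FLO11 activator STE12 at -1.72 and RIM101 at -2.18 in the authors' deposited table. Also among them were SFL1, a repressor of flocculation, at -1.24, SOK2 at -1.66, NRG1 at -1.33 and MOT3 at -1.26 there. In mRNA 2 of 17 were higher in ded1-cs, MGA1 at 1.45 and NRG1 at 1.29 in the authors' deposited table. In ded1-ts 4 of 17 were lower in TE and 1, MGA1 at 1.02, was higher. The 4 were SFL1 at -2.27, ECM22 at -1.39, STE12 at -1.39 and SOK2 at -1.08 in the authors' deposited table. With equal totals 4 were lower and 0 higher. In mRNA in ded1-ts 0 of 17 were past 2-fold as deposited, and 3, all higher, with equal totals. Of 3 further cold-inducible genes in ded1-cs, TIP1, a wall protein of the TIR family that is also among the 23, stood at 1.15 in TE in the authors' deposited table. NSR1, which encodes a nucleolar protein, stood at -1.12 in TE in ded1-cs and -1.03 in ded1-ts, and OLE1, for the fatty acid desaturase, at -1.32 in mRNA in ded1-cs, all in the authors' deposited tables. With equal totals TIP1 was under 2-fold in ded1-cs.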

How the data were processed

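Footprint and mRNA libraries of 8 strains were analysed from 6 tables, 1 per mutant strain. Per the submitters' processing notes, CASAVA 1.8, Bowtie2 2.6.0, TopHat2 2.1.0 and DESeq2 were used on build sacCer2, in roles that are not given in the sources used here. The authors deposited log2 levels and log2 changes per gene, each pooled over 2 libraries and scaled within its table. Base 2 was inferred from the size of the values. The deposited TE change equals the footprint change minus the mRNA change within 1e-05.

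With no value per library, the test named for such values, limma, could not be run. A 2-fold threshold and a minimum mean level of 50 per assay took its place, with the mean taken on the log scale over the strains compared. Changes between strains of 2 tables are differences of deposited changes. The WT level implied by the dbp1Δ and double mutant tables differed by a constant, 0.13 in footprints and 0.14 in mRNA, with an SD over genes of 0.004, so both were taken to share 1 WT. The 4 WT level columns of those tables match no sample and were not used. Alternatives were median centring, equal column totals, no level minimum, a 1.5-fold threshold and level differences. All 10 genes are named in every comparison, and of other lists up to 2 genes per direction, with more for the transcriptional regulators lower in TE. The genes and lists were chosen with earlier results of these data known. Symbols and gene positions came from RefSeq assembly R64, which paired 5444 of 5446 reading frames. The scripts, in Python 3.11.15 with pandas 2.3.3, were tested on simulated data.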

Additional observations from a re-analysis of the deposited data

How the results depend on the processing

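No paired analysis was possible because each deposited value pools both libraries of a strain and assay, and for the same reason no replicate could be left out. Of 234 member changes, 230 kept their side of 2-fold under median centring and 217 under equal column totals, and 0 reversed. Equal column totals left 2 of 5 members past 2-fold in TE in ded1-cs against DED1-CS and 0 of 1 in ded1-cs hcDBP1 against ded1-cs, by construction of the shift, which in TE is -0.59 and 0.17. The other TE shifts were -0.42 in ded1-cs hcDBP1 against DED1-CS, -0.22 in ded1-ts hcDBP1 against DED1-TS, -0.15 against ded1-ts, 0.14 in dbp1Δ and -0.20 in the double mutant against dbp1Δ, and smaller in the remaining comparisons. Footprint shifts ran from -0.52 to 0.13 and mRNA shifts from -0.13 to 0.20, and median centring shifted TE by -0.13 to 0.02. At a 1.5-fold threshold, members past it in TE were 5 rather than 3 in ded1-cs hcDBP1 against DED1-CS, 2 rather than 1 in ded1-cs hcDBP1 against ded1-cs, 2 rather than 0 in ded1-ts hcDBP1 against DED1-TS, 5 rather than 3 in dbp1Δ and 2 rather than 1 in the double mutant against WT. The cause was not tested. With no level minimum, which lets all 10 genes in, dbp1Δ had 3 in footprints and 5 in TE, the double mutant 7 and 5 against WT, and 7 in TE against dbp1Δ. Shares of all genes at 1.5-fold or with no level minimum are not given here. These counts therefore do not set the members apart from other genes. Differences of the level columns, run for TE in the 6 comparisons with usable columns, gave counts within 1.5 times of those from the deposited changes. Depth is unknown, so counting error is unknown. The TIR genes and FLO11 have footprint levels near the minimum of 50 in several strains. The mRNA level of TIR1 was also near it in ded1-cs, ded1-cs hcDBP1 and dbp1Δ. Counts for the other gene lists and counts of signs with equal column totals were chosen after seeing the data.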
